A study of Rattus norvegicus with 4 samples.

Results

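The comparison set untreated vessels of rats lacking protein kinase C beta (KO control) against untreated vessels of wild-type rats (WT control), gene by gene, with 1 microarray on each side. It took every named gene whose probe read well above background on at least 1 of these 2 arrays, which gave 9605 of the 9952 genes so detected on the 4 arrays of the series and of 16580 named genes on the array. Wild-type animals were Wistar rats, and the KO animals were described as transgenic rats with a PKCbeta deletion. All rats were male, and total RNA came from vessels. The other 2 arrays held vessels of each genotype exposed over 24 h to Ang II (angiotensin II), a peptide hormone that constricts vessels and raises blood pressure. The design names 4 rats per genotype. The sources used here do not say whether RNA of several rats was pooled, which vessel was taken, how the gene was deleted and on which strain, how old the rats were, or whether the control vessels were kept in culture.

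Protein kinase C enzymes are serine and threonine kinases that act downstream of phospholipase C. The conventional isoforms, among them the beta isoform, are activated by calcium and diacylglycerol when receptors coupled to Gq, such as the angiotensin II type 1 receptor, are engaged. In blood vessels the beta isoform has been studied mainly in diabetes and hypertension, where it is linked to contraction, oxidant production, matrix deposition and leukocyte recruitment.

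Levels are given below as log2 of the processed signal after subtracting the log2 of the array's 75th percentile, so that 0 is the signal of the probe at that percentile. A log2 ratio is the KO control level minus the WT control level of the same probe. A gene well above background on only 1 array has a bound in place of a ratio, computed with the dim side no lower than the weakest signal called well above background on its array, and is written "at least". The direction of a bound is set by which array detected the gene. For 156 genes detected on 1 array only, that limit left no bound, and they were compared but given no value. With 1 array per group there is no replicate spread and no test, so a gene was called at a fixed size of 2-fold, and words such as higher and lower describe these 2 arrays. The error given for a ratio is the scanner software's own, covers the spots of the probe only, and had a median of 0.21 on the log2 scale.

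Prkcb encodes the deleted kinase and had 2 probes on the array. The probe read by 9 spots gave processed signals of 14.8 on WT control, 1.94 on KO control, 18.0 on WT Ang II and 1.89 on KO Ang II, and was well above background on the WT arrays only. Prkcb was at least 1.44-fold lower on KO control by the bound, a size set by the weak WT signal and the detection limit. The other probe read 8.27 on WT control, 1.90 on KO control, 12.2 on WT Ang II and 1.73 on KO Ang II, and passed background on WT Ang II alone. Both probes thus read weaker on both KO arrays than on either WT array, and the labels describe the KO rats as carrying a PKCbeta deletion. For the second probe, neither control signal was well above background. The sources used here do not say whether either probe lies within the deleted part.

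The remaining isoforms differed little. Of 12 protein kinase C and D genes listed, 8 were compared and 6 were measured on both arrays, with a median log2 ratio of -0.08. Prkcd, an isoform that does not need calcium, had levels of 4.16 on WT control and 4.40 on KO control. Prkci, an atypical isoform, read 5.01 and 4.86 on the same arrays. The largest of these ratios was that of Prkch, another isoform of the calcium-independent class, at -0.58 (error 0.23), and the Ang II arrays gave -0.63. For Prkd3, a kinase D gene, the brighter probe gave 0.03 and its other probe -0.91, so its direction was not settled.

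Across the 9449 genes with a ratio or a bound the median log2 value was 0.01 with an interquartile range of -0.29 to 0.32, and 51.2% lay above 0. Genes at least 2-fold higher on KO control numbered 227 (2.36% of all 9605), and genes at least 2-fold lower numbered 313 (3.26%). Measured ratios made up 166 of the higher and 239 of the lower calls, and bounds the rest. All 405 called genes measured on both arrays exceeded 2 times their spot error, as did 3158 of the 8759 genes measured on both. Because a call needs a log2 size of at least 1 and the median error was 0.21, this was likely in advance for called genes. Calls were more frequent at low levels: 65 higher and 101 lower calls came from the 2190 dimmest of the genes measured on both arrays, against 26 and 21 from the 2190 brightest. KO control was the array with the fewest probes well above background, 40.6% against 43.5% for WT control, and genes detected on WT control alone numbered 676, 520 of them with a bound, against 170 on KO control alone, each with a bound. Position on the slide, RNA preparation and genotype cannot be told apart. A further 8495 detected probes had no gene name in the table used here. Of those measured on both arrays, 234 were higher and 129 lower by 2-fold or more, a split in the other direction from that of the named genes.

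**Figure D1:**
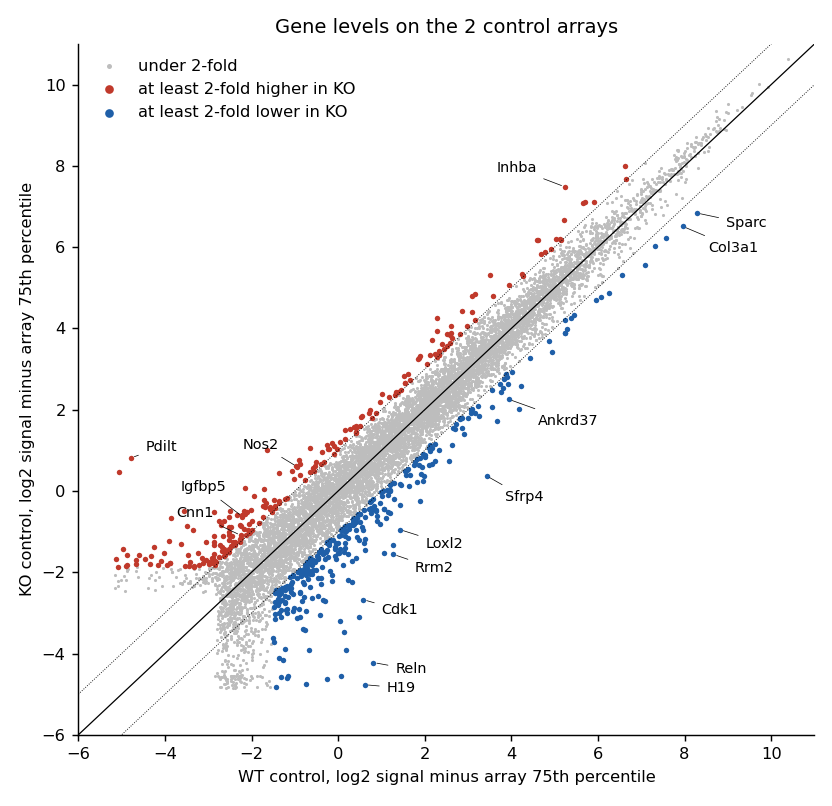
Level of each compared gene on WT control (x axis) against KO control (y axis), both as log2 signal minus the array's 75th percentile, with 1 array per axis; dotted lines mark 2-fold and red and blue points are the 227 higher and 313 lower genes. Points scatter more widely at low levels, bright genes such as Sparc, Col3a1 and Inhba stand clear of the lines, and points at the lower edges were read below background on 1 side.

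Contractile proteins of smooth muscle, the main cell type of the arterial wall, were higher on KO control. All 15 listed genes of this group were measured on both arrays, all 15 had ratios above 0, and their median was 0.55 beside 0.04 for all genes measured on both. Only 3 of them reached 2-fold. Ppp1r12b, a regulatory subunit of myosin phosphatase, had levels of 0.42 on WT control, 1.6 on KO control, 0.24 on WT Ang II and 1.58 on KO Ang II, so that both KO arrays were high. The ratio was 1.19 (error 0.21), a 2.28-fold difference, and a dimmer probe of Ppp1r12b gave 0.87. Myl9, the regulatory light chain of smooth muscle myosin, read 2.58 on WT control, 3.63 on KO control, 3.33 on WT Ang II and 3.76 on KO Ang II, with a ratio of 1.05 (error 0.20). Here the WT control array stood lowest and the other 3 lay closer together. Cnn1, which encodes calponin, was dim, with signals of 12.4 and 22.2 and a ratio of 1.15 (error 0.35).

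The other contractile genes had smaller ratios. Acta2, smooth muscle alpha-actin, had levels of 2.76 on WT control, 3.52 on KO control, 3.05 on WT Ang II and 3.45 on KO Ang II, which is a ratio of 0.77 and 1.70-fold. The ratio of Tpm2, a tropomyosin, was 0.81, and that of Smtn, which encodes smoothelin, was 0.55. Myh11, the smooth muscle myosin heavy chain, differed by 0.34, Mylk, the light chain kinase, by 0.42, and Actg2, the gamma-actin of smooth muscle, by 0.34. For Tagln, Cald1 and Tpm1 the ratios of 0.08, 0.03 and 0.09 were within their errors of 0.14, 0.07 and 0.06 or close to them. In the Ang II arrays the median ratio of the contractile genes was 0.40. In whole vessels, more cells of a type and more RNA per cell cannot be told apart.

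Myocd, the coactivator of serum response factor that drives these genes, had a ratio of 0.70, with 0.28 at its other probe, and Srf itself 0.26. Among the cytoskeletal members, Actn1, an actin cross-linker, had levels of 2.32 on WT control, 3.35 on KO control, 2.27 on WT Ang II and 3.42 on KO Ang II, and a ratio of 1.02. Csrp1, a LIM protein, reached 0.91, and Flna, filamin A, 0.55. Des, the intermediate filament desmin, ran the other way at -1.11. Its levels of 3.73 on WT control, 2.62 on KO control, 2.22 on WT Ang II and 2.81 on KO Ang II show WT control as the array that stood apart, and the Ang II arrays gave a ratio of 0.59.

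**Figure D2:**
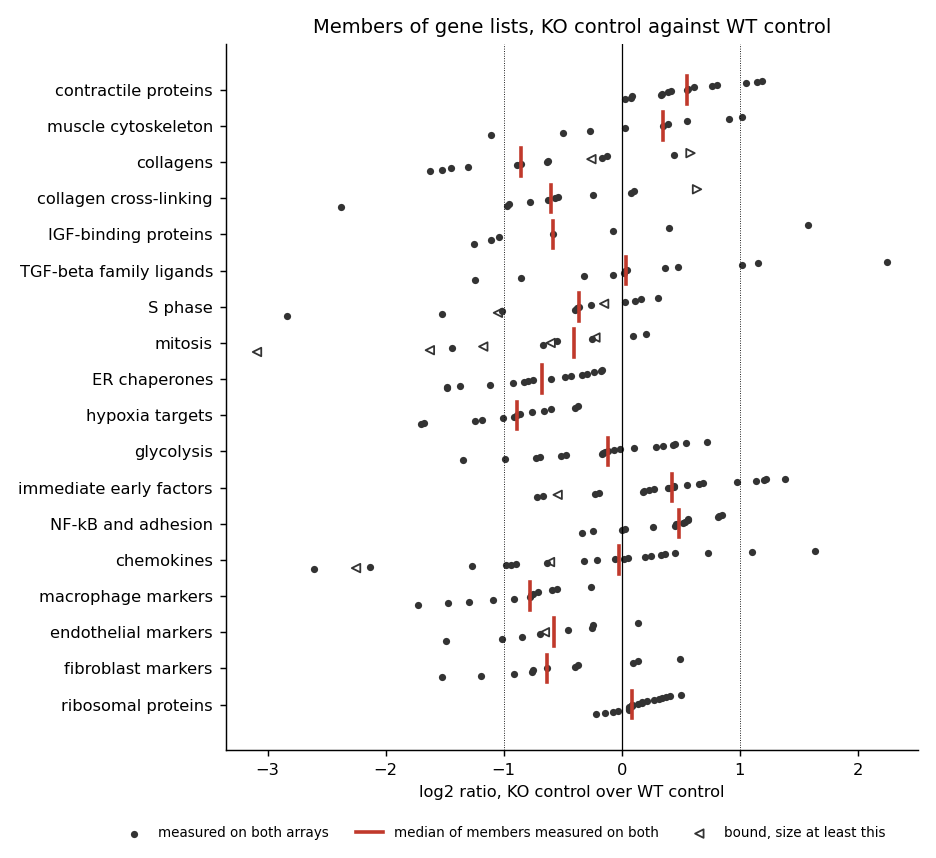
Log2 ratio of KO control over WT control (x axis) for each member of 18 gene lists (rows), with filled points for genes measured on both arrays, open triangles for bounds and a red bar at the median of the measured members. All 15 contractile genes lie above 0, all 16 chaperones of the endoplasmic reticulum, all 13 hypoxia targets and all 12 measured macrophage markers lie below 0, and ribosomal proteins sit near 0 with a median of 0.09.

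Genes that set vascular tone did not share a direction. Receptors measured on both arrays had a median of -0.14 (14 genes), and enzymes and peptides a median of 0.32 (12 genes). Agtr1a, the type 1 receptor for angiotensin II, had a signal of 25.9 on WT control and 6.33, not well above background, on KO control, which makes it at least 2.51-fold lower. The same bound for Agtr1a in the Ang II arrays was -1.48. Ednra, the endothelin type A receptor, was at least 2.42-fold lower by signals of 24.9 and 3.20. Agtr1a and Ednra were detected on WT control only of the control pair, so there they could only be lower. Gucy1a1, a subunit of the nitric oxide receptor, had a ratio of -0.97.

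Nos2, the inducible nitric oxide synthase, was higher without Ang II and not with it. It read -0.95 on WT control, 0.59 on KO control, 0.03 on WT Ang II and -0.73 on KO Ang II, so the ratio was 1.54 without and -0.76 with Ang II. Ptgs1, cyclooxygenase 1, had levels of 2.52 on WT control and 3.86 on KO control and was 2.54-fold higher, with 0.88 in the Ang II arrays. P2rx1, an ATP-gated channel of smooth muscle, was well above background on KO control only, so it could only be higher, and was at least 3.39-fold higher.

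Channels and calcium stores held 2 measured genes past 2-fold, both lower. Cacna1h, a T-type calcium channel, had levels of 0.33 on WT control, -1.72 on KO control, -0.90 on WT Ang II and -2.72 on KO Ang II, a 4.13-fold difference (error 0.28 on the log2 scale). Atp2a3, a calcium pump of the sarcoplasmic reticulum, was 3.10-fold lower. RGS proteins, which shorten signalling by G proteins, included calls in both directions. Rgs2 had levels of 4.69 on WT control, 5.83 on KO control and 5.64 on each Ang II array, so only WT control was low and the ratio was 1.14. Rgs5, abundant in pericytes and arterial smooth muscle, was at least 6.24-fold lower, with signals of 64.4 on WT control and 4.26 on KO control. WT control was again the array that stood apart, since Rgs5 levels in the Ang II arrays were -2.79 for WT and -2.41 for KO.

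Of the NADPH oxidase subunits, which make superoxide and peroxide and in part are substrates or partners of protein kinase C, 7 were measured on both arrays with a median of -0.09. Rac2, the small GTPase of the leukocyte oxidase, read 0.07 on WT control, -0.95 on KO control, 0.22 on WT Ang II and -0.96 on KO Ang II by a probe with 9 spots, and its ratio was -1.02 (error 0.08). Nox4, the catalytic subunit found in vascular cells, was 1.74-fold higher, with 1.36 on the log2 scale at its other probe and 1.81 in the Ang II arrays.

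The collagens were lower on KO control. Of 30 listed genes 13 were compared and 11 measured on both arrays, 10 of those had ratios below 0, and the median was -0.85. Col3a1, a fibrillar collagen of the adventitia and media, was read by 10 spots, with levels of 7.96 on WT control, 6.51 on KO control, 7.98 on WT Ang II and 6.51 on KO Ang II. The 2 WT arrays nearly coincided, as did the 2 KO arrays, and the ratio was -1.45 (error 0.07), or 2.72-fold. Col1a1, the main fibrillar collagen, had a ratio of -1.52 at its brighter probe and -0.48 at its other probe, so the size depended on the probe. Col4a1, of the basement membrane, had levels of 5.29 on WT control and 3.99 on KO control and a ratio of -1.30. Col8a1, a short-chain collagen of the subendothelium, was 3.08-fold lower at a dim probe. Col1a2 and Col15a1 stayed under the threshold at -0.63 and -0.62, and Col5a1 had -0.88 at its brighter and -0.14 at its other probe. Col18a1 was the only measured collagen above 0, at 0.45.

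Cross-linking and folding enzymes of collagen were lower as well, with a median of -0.60 over 10 genes measured on both arrays. Loxl2, a lysyl oxidase, had levels of 1.43 on WT control, -0.95 on KO control, 0.74 on WT Ang II and -0.61 on KO Ang II, and was 5.2-fold lower. Plod2, a lysyl hydroxylase, had a ratio of -0.97, and Serpinh1, the collagen chaperone of the endoplasmic reticulum, -0.95 with -1.10 at its other probe. Eln, which encodes elastin, read 6.07 on WT control, 4.77 on KO control, 5.94 on WT Ang II and 4.61 on KO Ang II, and both KO arrays were lower by a similar amount. Its ratio was -1.30, whereas the 13 measured elastic fibre genes had a median of -0.09.

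Among proteoglycans and matricellular proteins the medians were -0.14 and -0.04, near that of all genes. Sparc, a collagen-binding matricellular protein, had levels of 8.28 on WT control, 6.84 on KO control, 8.58 on WT Ang II and 6.84 on KO Ang II over 10 spots, a ratio of -1.44 (error 0.07). Ogn, a small leucine-rich proteoglycan, was 2.63-fold lower, with -1.51 on the log2 scale at its other probe. Dcn, the related proteoglycan decorin, was at 0.14, Fn1, fibronectin, at -0.41, and Ccn2, connective tissue growth factor, at -0.89. Proteases of the matrix were called in both directions: Adamts12 at -1.5 and Mmp16 at -1.22, Adamts9 at 1.1 and Mmp13 at 1.09. For Adamts9 and Mmp13 the Ang II arrays gave -0.33 and -0.02.

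Fibroblast markers had a median of -0.63, but the list includes Col1a1 and Col1a2, and its median is the ratio of Col1a2 itself. Of 15 listed, 11 were compared, of which 8 lay below 0 and 3 above. Their summed level, in units of the array's 75th percentile, was 612 on WT control and 499 on KO control. Neither the median nor the sum was computed without Col1a1 and Col1a2, so overlap with the collagens is built into both. Pdgfra, the receptor that marks fibroblasts, had a ratio of -0.39 and Dpep1 -1.20. The part of these markers in the lower collagen signal was not tested.

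The Wnt pathway, in which secreted ligands stabilise beta-catenin and secreted frizzled-related proteins bind the ligands, held the largest measured ratio below 0. Sfrp4, such an antagonist, had levels of 3.43 on WT control, 0.37 on KO control, 1.54 on WT Ang II and 0.47 on KO Ang II, and was 8.30-fold lower (error 0.21 on the log2 scale). WT control was the highest array and both KO arrays were low. Sfrp1 was 2.87-fold lower, with a ratio of -0.70 at its other probe and 0.21 in the Ang II arrays, and Sfrp2 had a ratio of -0.81. Wnt16, a ligand, read 0.31 on WT control, -2.25 on KO control, -0.18 on WT Ang II and -2.01 on KO Ang II, and was 5.89-fold lower.

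Of 8 listed target genes of the pathway only 3 were compared, and 2 of them were measured on both arrays. All 3 lay above 0 in the control pair, while in the Ang II arrays 1 lay above and 1 below 0. Nkd1 and Nkd2, inhibitors of Dishevelled that Wnt signalling induces, had ratios of 1.31 and 1.37. The other probe of Nkd1 gave -0.38, opposite in sign, and that of Nkd2 gave 0.65. Axin2, a widely used target gene, was well above background on KO control only, so it could only be higher, and was at least 1.61-fold higher. Dkk2, a modulator of the Wnt co-receptor, was at least 5.22-fold higher, by a signal of 33.6 on KO control against signals not well above background on the other 3 arrays.

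Ligands of the TGF-beta superfamily, which signal through SMAD proteins, included 3 that were higher and 1 that was lower. Inhba, the subunit of activin A, was among the brighter genes called. Its levels were 5.24 on WT control, 7.48 on KO control, 5.70 on WT Ang II and 6.99 on KO Ang II, both KO arrays were high, and the ratio was 2.25 (error 0.20), or 4.75-fold. Tgfb1, the founding ligand, read -0.58 on WT control and 0.57 on KO control, a ratio of 1.16 that was 0.20 in the Ang II arrays. Gdf15, a stress-induced ligand, had levels of 2.32 on WT control, 3.34 on KO control, 4.22 on WT Ang II and 3.68 on KO Ang II, so WT control was lowest. Inhbb, the subunit of activin B, was 2.36-fold lower.

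Antagonists of bone morphogenetic proteins also went both ways. Grem1 was at least 3.05-fold lower by 9 spots, with signals of 31.5 on WT control and 6.34 on KO control. Chrd, chordin, was 3.10-fold higher by signals of 10.2 and 25.5, and was not well above background on KO Ang II. Bmpr1b, a type I receptor, had levels of 2.98 on WT control, 4.06 on KO control, 2.96 on WT Ang II and 4.04 on KO Ang II, so that each KO array exceeded its WT partner by nearly the same amount. The 28 measured genes of the superfamily had a median of 0.02.

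Insulin-like growth factor binding proteins, which carry and sequester the growth factors, were detected in all 7 listed cases. Igfbp3 read 5.94 on WT control, 4.70 on KO control, 5.63 on WT Ang II and 4.38 on KO Ang II, with a ratio of -1.25 (error 0.14). Igfbp2 and Igfbp4 had ratios of -1.10 and -1.04, which in the Ang II arrays were -0.37 and -0.42. Igfbp5 was 2.99-fold higher at a dim probe, with signals of 12.7 on WT control and 30.6 on KO control, and a log2 ratio of 1.0 in the Ang II arrays. The median of the 7 binding proteins was -0.58. Igf1 itself had a ratio of -0.24 at its brighter probe and -2.28 at its other probe, and Igf2 -0.38.

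Of 15 imprinted genes compared, 4 were at least 2-fold lower and 0 higher, beside 3.26% and 2.36% of all genes. Only 2 of these calls were measured on both arrays. The other 2, H19 and Dio3, were detected on WT control only and could therefore only be lower. H19, an imprinted non-coding RNA, had a signal of 90.0 on WT control and 1.74 on KO control, which makes it at least 8.72-fold lower. Its levels in the Ang II arrays, -2.06 for WT and -4.35 for KO, place WT control far above the rest. Meg3, an imprinted non-coding RNA read by 10 spots, had a ratio of -1.10 (error 0.07) and was lower on KO in the Ang II arrays by -1.38. Ndn, the imprinted gene necdin, was 2.83-fold lower over 10 spots, and Dio3, a deiodinase, at least 3.29-fold lower. The 13 imprinted genes measured on both arrays had a median of -0.19.

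Of 24 compared HOX, T-box and other genes that pattern the body, 4 were at least 2-fold lower and 0 higher, and all 4 were measured on both arrays. Over all genes 3.26% were lower and 2.36% higher. Tbx1, a T-box factor of the pharyngeal arches and their arteries, had levels of 1.05 on WT control, -1.53 on KO control, 0.27 on WT Ang II and -0.42 on KO Ang II and was 5.99-fold lower. Meox1, a homeobox factor of the somites, read -0.13 on WT control and -2.08 on KO control, a ratio of -1.95 that was -2.07 in the Ang II arrays. Tbx3 had -1.38, and Hoxc9, of the HOX genes expressed in the posterior body, -1.74. Of 33 HOX genes listed 8 were measured on both arrays, with a median of -0.08.

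Of 32 cell cycle genes compared, 8 were at least 2-fold lower on KO control and 0 higher, beside 3.26% and 2.36% of all genes. Of the 24 measured on both arrays 4 were at least 2-fold lower, while 13 lay below 0 and 11 above it. The other calls were bounds of genes detected on WT control only, which could therefore only be lower. Rrm2, the small subunit of ribonucleotide reductase that makes deoxynucleotides in S phase, was read by 9 spots, with levels of 1.27 on WT control, -1.56 on KO control, 0.70 on WT Ang II and -1.33 on KO Ang II. Both KO arrays were low, and Rrm2 was 7.12-fold lower (error 0.09 on the log2 scale). Cdk1, the kinase that triggers mitosis, had signals of 87.8 on WT control and 7.41, not well above background, on KO control over 10 spots, and was at least 8.51-fold lower. The bound for Cdk1 in the Ang II arrays was -3.11. Mki67, which encodes the Ki-67 protein of dividing cells, had a ratio of -1.44 in each pair of arrays (error 0.08).

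Ccna2, cyclin A, was at least 3.08-fold lower and Bub1, a kinase of the spindle checkpoint, at least 2.25-fold lower. Ccne1 and Ccne2, the E cyclins, had ratios of -1.01 and -1.52. Of 12 mitosis genes compared, 6 were detected on WT only and the 6 measured on both had a median of -0.40. The 11 measured S phase genes had a median of -0.36 and the 7 of G1 a median of 0.01. Pcna, the sliding clamp of replication, was at -0.38.

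**Figure D3:**
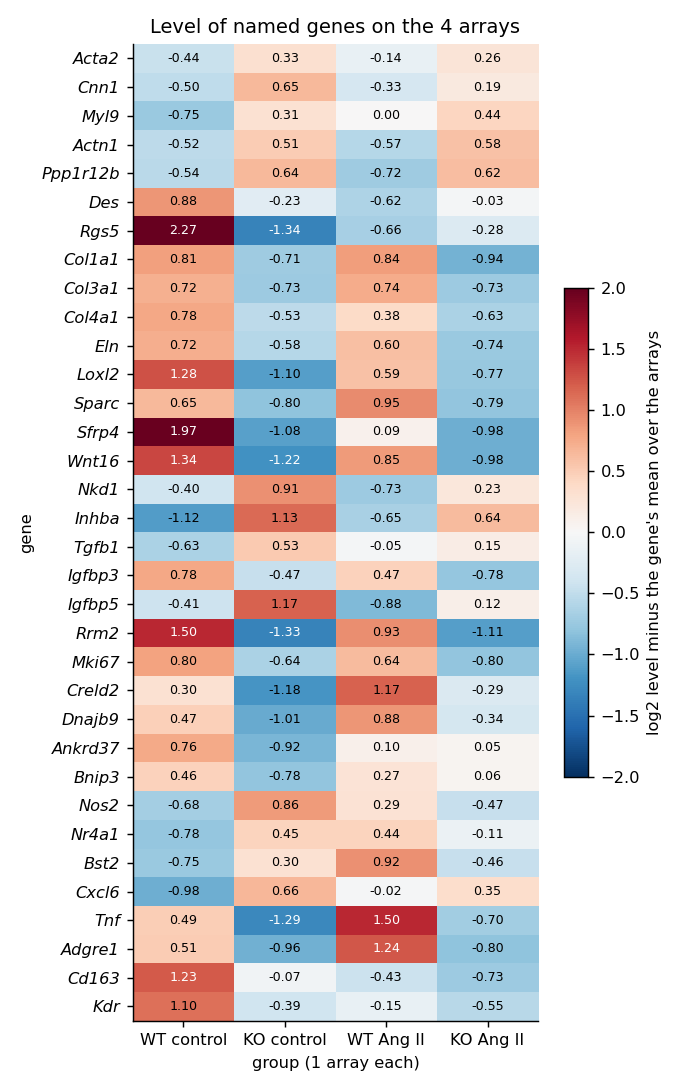
Level of 34 named genes (rows) on each of the 4 arrays (columns, 1 array per group), as log2 level minus the gene's own mean over the 4 arrays, with dim values as read and colours limited to 2 in either direction. For Col3a1, Eln, Rrm2 and Actn1 both KO arrays lie on 1 side of both WT arrays. Des, Rgs5, Sfrp4, Cd163 and Kdr show WT control above the other 3 arrays, and for Sfrp4 and Kdr both KO arrays also lie below both WT arrays.

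Chaperones and folding enzymes of the endoplasmic reticulum, which the unfolded protein response induces through the factors ATF6 and XBP1, were lower without exception. All 16 compared of 17 listed had ratios below 0, with a median of -0.68, and 4 were at least 2-fold lower. Creld2, a folding factor, had levels of 3.55 on WT control, 2.07 on KO control, 4.42 on WT Ang II and 2.95 on KO Ang II, so each KO array was below its WT partner, by 2.78-fold in the control pair. Dnajb9, a co-chaperone, was 2.79-fold lower. Pdia6, a protein disulphide isomerase read by 10 spots, had a ratio of -1.37 (error 0.06) and Herpud1, a component of degradation at the endoplasmic reticulum, -1.12. The members with the brightest probes, Hspa5 and Hsp90b1, were at -0.34 and -0.23. Members of the integrated stress response, a branch that acts through ATF4, had a median of -0.28. Atf4 was at 0.09 and Ddit3 at -0.42, with 0.41 for Ddit3 in the Ang II arrays.

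The promoters of this list were searched for the endoplasmic reticulum stress element, CCAAT followed after 9 bases of any kind by CCACG, because it is the site through which ATF6 acts with NF-Y. RefSeq promoter windows of the GRCr8 build, 250 bases before to 50 after the start, were matched for 24 of 28 compared members and searched on both strands. The element was found in 7 of 24 members (29.2%) and in 22 of 33469 windows of all genes (0.0657%). Among chaperones the 6 members with it had a median log2 ratio of -0.52 and the 8 without it -0.77, and only 1 member of the integrated stress group held it. These are descriptions of few genes and say nothing of the factors that bind it. The bases before the start of Creld2 and Hspa5 are shown because they hold the element at genes with a large and a small difference, with its fixed letters in capitals.

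Creld2, chr7:121789134-121789383, plus strand, element on the minus strand: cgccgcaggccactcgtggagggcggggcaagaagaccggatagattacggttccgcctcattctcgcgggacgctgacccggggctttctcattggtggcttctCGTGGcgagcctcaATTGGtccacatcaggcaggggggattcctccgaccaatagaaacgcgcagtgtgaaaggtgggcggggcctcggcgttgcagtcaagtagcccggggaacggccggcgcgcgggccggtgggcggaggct
Hspa5, chr3:38452766-38453015, plus strand, element on the plus strand: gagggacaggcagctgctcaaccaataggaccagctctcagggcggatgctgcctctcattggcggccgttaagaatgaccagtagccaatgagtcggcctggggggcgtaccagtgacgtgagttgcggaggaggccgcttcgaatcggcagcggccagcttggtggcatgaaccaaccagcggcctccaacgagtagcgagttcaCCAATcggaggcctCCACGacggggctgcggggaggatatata

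Hypoxia targets, the genes that hypoxia-inducible factors switch on at low oxygen, were lower as a group. All 13 compared of 15 listed had ratios below 0, the median was -0.89, and 5 were at least 2-fold lower. Ankrd37 had levels of 3.94 on WT control, 2.26 on KO control, 3.27 on WT Ang II and 3.22 on KO Ang II, so KO control stood below the other 3 arrays by 3.20-fold or less. Bnip3, a mitophagy receptor read by 10 spots, showed the same order, with 6.55, 5.32, 6.37 and 6.15 on the same arrays and a ratio of -1.24 (error 0.07) that was -1.70 at its other probe. Higd1a, a mitochondrial protein, was 3.25-fold lower, Car9, carbonic anhydrase IX, 2.27-fold lower and Ndrg1 2.01-fold lower. Vegfa, the endothelial growth factor, was at -0.60, with -0.05 at its other probe. In the Ang II arrays the median of these genes was -0.34, and the ratios of Ankrd37 and Bnip3 were -0.05 and -0.21.

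Enzymes of glycolysis, many of them under the same factors, did not share the difference. Their median over 19 genes was -0.12. Pfkfb3, which makes the activator of phosphofructokinase, had a ratio of -1.35 at its brighter and -0.41 at its other probe, and Slc2a1, the glucose transporter GLUT1, -0.72. Ldha, Pgk1 and Gapdh were at -0.17, 0.10 and 0.44.

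The core of the hypoxia response element, ACGTG, was searched for on both strands in the same windows. It was found in 15 of the 29 matched members of both groups (51.7%), against 19.3% of all windows, and it can overlap the end of a stress element. Since hypoxia targets and glycolysis genes differed in their medians, members are given by group. Of the hypoxia targets, 7 with the core had a median log2 ratio of -1.18 and 4 without it -0.82, and of the glycolysis genes, 8 with the core had -0.43 and 10 without it 0.14. The bases before the start are shown for Ankrd37, Bnip3 and Pfkfb3, 3 of the members at least 2-fold lower that hold it, with matches in capitals. In CACGTG the core is read on both strands.

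Ankrd37, chr16:53001257-53001506, plus strand: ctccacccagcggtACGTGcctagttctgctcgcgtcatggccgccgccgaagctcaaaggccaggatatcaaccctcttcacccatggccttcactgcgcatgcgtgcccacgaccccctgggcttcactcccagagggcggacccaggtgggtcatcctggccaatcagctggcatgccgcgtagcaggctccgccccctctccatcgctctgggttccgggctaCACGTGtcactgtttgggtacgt
Bnip3, chr1:203154963-203155212, minus strand: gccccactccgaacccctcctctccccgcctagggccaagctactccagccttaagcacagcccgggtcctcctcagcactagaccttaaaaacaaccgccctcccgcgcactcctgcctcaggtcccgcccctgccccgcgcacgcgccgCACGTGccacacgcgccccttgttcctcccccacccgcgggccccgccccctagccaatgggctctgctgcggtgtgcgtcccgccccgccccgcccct
Pfkfb3, chr17:71944683-71944932, plus strand: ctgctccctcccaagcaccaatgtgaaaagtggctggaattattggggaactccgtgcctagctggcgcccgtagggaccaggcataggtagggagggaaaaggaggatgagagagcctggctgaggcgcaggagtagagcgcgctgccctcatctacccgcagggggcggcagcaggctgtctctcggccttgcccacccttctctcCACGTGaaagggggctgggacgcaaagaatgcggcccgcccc

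Immediate early transcription factors, which cells induce within minutes of a stimulus, had a median of 0.42 over 20 measured genes, 16 of them above 0, and of 0.40 with bounds included, which was 0.16 under normexp background correction. The Nr4a nuclear receptors were at least 2-fold higher, all 3 of them. Nr4a1 was read by 9 spots, with levels of 3.57 on WT control, 4.79 on KO control, 4.79 on WT Ang II and 4.23 on KO Ang II, so that WT control alone was low and the ratio was 1.22 (error 0.07). Nr4a2 and Nr4a3 had ratios of 1.14 and 1.38, and Fosl2, an AP-1 subunit, 1.21. Fos and Egr1, the most used markers of such a response, were at 0.45 and 0.39. Sik1, a kinase induced by cyclic AMP, was 3.52-fold higher, with levels of 3.51 on WT control, 5.33 on KO control, 3.85 on WT Ang II and 4.71 on KO Ang II.

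Genes of the NF-kB pathway lay above 0 in 12 of 14 cases with a median of 0.49, which was 0.21 under normexp background correction, and none reached 2-fold. Nfkbia, the inhibitor that NF-kB induces, had a ratio of 0.81, Birc3, an inhibitor of apoptosis, 0.85 and Tnip1 0.82. In the Ang II arrays the median of the same list was -0.32. Heat shock proteins had a median of 0.26, with Hsph1 at 1.03 and Hsp90ab1 at 1.02, and the other probe of Hsp90ab1 gave -0.08. Cry2, a repressor of the circadian clock, was 2.68-fold higher, and the 12 measured clock genes had a median of -0.03. The 16 measured genes of cholesterol synthesis had a median of -0.02. Slc7a11, the cystine transporter, was 2.46-fold lower.

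Cytokines and chemokines were called in both directions around medians near 0. The 20 chemokines measured on both arrays had a median of -0.02. Cxcl14, a chemokine of stromal cells, was read by 9 spots, with levels of 1.27 on WT control, -1.34 on KO control, -0.69 on WT Ang II and -1.64 on KO Ang II, and was 6.10-fold lower. Ccl20, which attracts cells that carry CCR6, read 1.89 on WT control, -0.25 on KO control, 2.58 on WT Ang II and -1.06 on KO Ang II, with a ratio of -2.13 and -1.95 at its other probe. Both KO arrays were low for Ccl20, and the Ang II arrays differed by more, at -3.64. Ccl12, a monocyte attractant, was 2.41-fold lower, and Ccl21, a chemokine of lymphatic vessels, at least 4.76-fold lower. Cxcl6 and Cxcl13, attractants of neutrophils and of B cells, were 3.12-fold and 2.15-fold higher. Ccl2, the main monocyte attractant, read 7.08 on WT control and 7.02 on KO control.

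Tnf had levels of 0.97 on WT control, -0.81 on KO control, 1.99 on WT Ang II and -0.22 on KO Ang II and was 3.44-fold lower. Il1rl1, the receptor for interleukin 33, was 2.81-fold lower. Il11 and Lif, both of the interleukin 6 family, were 2.68-fold and 2.53-fold higher, Lif at a dim probe, and Il6 itself was at 0.32. Bst2, an antiviral membrane protein induced by interferon, had a ratio of 1.05, and the 20 measured interferon genes had a median of 0.18. In complement and the acute phase, Orm1 was 3.67-fold lower, the anaphylatoxin receptors C5ar1 and C3ar1 were at -1.12 and -1.01, and C1qb was at -1.09 over 10 spots.

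Macrophage markers, which include C1qb, were lower on KO control. Of 16 listed, 13 were compared and 12 had a fold, and all 12 ratios lay below 0 with a median of -0.77. Their summed level, in units of the array's 75th percentile, was 56.0 on WT control and 31.9 on KO control, 57.3 on WT Ang II and 37.8 on KO Ang II. Adgre1, the F4/80 antigen, had levels of 0.03 on WT control, -1.44 on KO control, 0.76 on WT Ang II and -1.28 on KO Ang II. Cd163 was 2.45-fold lower and F13a1 3.31-fold lower, both with WT control as the highest array, whereas Cd68 was at -0.26. The part of macrophage content in the lower Tnf, Ccl12, C3ar1 and Rac2 signals was not tested.

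Other cell types were read by few detected markers. The 6 smooth muscle markers were all measured, all lay above 0 and had a median of 0.66, which was 0.24 under normexp background correction, with summed levels of 90.6 on WT control and 116 on KO control. Acta2, Myh11, Tagln, Cnn1 and Myocd among them were described above with the smooth muscle genes, so these markers are not a separate reading. Blood endothelium had 8 of 14 markers measured on both arrays with a median of -0.58. Kdr, the main receptor of VEGF, was 2.81-fold lower with levels of 2.16 on WT control, 0.67 on KO control, 0.91 on WT Ang II and 0.51 on KO Ang II, Cldn5 was at -1.01 and Pecam1 at -0.70, while Vwf was at 0.14. Summed endothelial levels were 40.6 and 31.2 on WT and KO control.

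Of 7 lymphatic markers only 2 were measured on both arrays, 1 above and 1 below 0, with a median of -0.02. Another 3 were detected on WT control only and 1 on KO control only, which sets the direction of their bounds. Reln, a secreted glycoprotein of lymphatic endothelium, had signals of 103 on WT control and 2.54 on KO control over 10 spots and was at least 10-fold lower, and Lyve1 was at least 5.86-fold lower. Flt4, the receptor of lymphatic growth factors, was detected on KO control only, at least 2.13-fold higher. The summed lymphatic level was 204 on WT control, 160 on KO control, 267 on WT Ang II and 144 on KO Ang II. Reln and Lyve1, at log2 levels of 0.82 and 0.04 on WT control, contributed little to that sum. Of 13 white adipocyte markers 7 were compared. Of these, 4 (Adipoq, Retn, Cd36 and Fabp4) were detected on WT control only and could therefore only be lower. Adipoq was at least 4.46-fold and Retn at least 3.75-fold lower. The 3 adipocyte markers measured on both arrays had a median of 0.17, with 2 above 0 and 1 below. The summed level of the 7 was 11 on WT control and 9.43 on KO control. For mast cells only Kit was compared, at -1.72, and none of the 6 neutrophil markers on the array passed background. The part of attached fat, lymphatic vessels or endothelium in the results above was not tested.

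The largest differences on either side fell partly outside these groups. Dusp13b, a dual-specificity phosphatase, had levels of -1.63 on WT control, 1.01 on KO control, -0.83 on WT Ang II and -0.25 on KO Ang II and was 6.26-fold higher. Giot1, a zinc finger factor, was 3.94-fold higher, with 1.56 on the log2 scale at its other probe. Tcap and Nrap, proteins of the striated muscle sarcomere, were 3.24-fold and 3.35-fold higher, and Slc24a2, a sodium, calcium and potassium exchanger, 3.28-fold higher with 1.44 on the log2 scale in the Ang II arrays. Rrs1, needed for ribosome assembly, and Hsf4, a heat shock factor, were 3.47-fold and 3.57-fold higher. Ptges3l1, Prp2, Bcar3, Hs6st3 and Tcp11 were between 3.41-fold and 4.68-fold higher, and of these Ptges3l1, Prp2, Bcar3 and Tcp11 had ratios of only 0.08 to 0.19 in the Ang II arrays.

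Several of the largest bounds rested on KO control alone. Pdilt, a protein disulphide isomerase of the testis, had a signal of 83.1 on KO control and was not well above background on the other 3 arrays, which makes it at least 12.9-fold higher. Arsl, an arylsulfatase, was at least 10.2-fold higher in the same pattern. Pdha2, a testis form of pyruvate dehydrogenase, was 4.06-fold higher at signals of 8.72 and 28.5, and Tnp1, a transition protein of sperm, was detected on KO control only. These 3 were the compared members of a list of 10 testis markers. The level summed over these 3 alone was 2.62 on KO control and 0.159 to 0.248 on the other arrays. Of the 3, 2 entered the comparison through KO control only, so a higher sum there follows in part from the selection. Whether these genes share a source in that library was not tested. Cytl1, a small cytokine-like protein, was at least 4.07-fold higher and also higher in the Ang II arrays, by a bound of 2.93. Lrrtm3, Lrrc39, Prr9 and Runx3 were at least 3.75-fold to 5.03-fold higher.

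On the lower side, G0s2, an inhibitor of triglyceride lipase, had levels of 4.18 on WT control, 2.03 on KO control, 3.40 on WT Ang II and 2.91 on KO Ang II and was 4.45-fold lower. Olr1, the scavenger receptor LOX-1 for oxidised LDL, was 4.21-fold lower, with -2.65 on the log2 scale in the Ang II arrays. Ntrk3, the neurotrophin 3 receptor, was 3.85-fold lower, with -1.62 on the log2 scale at its other probe. Mrln, an inhibitor of the sarcoplasmic calcium pump, Tns4, a tensin, and Dmrta2, a transcription factor, were 4.25-fold, 4.21-fold and 3.81-fold lower. Akr1c15, an aldo-keto reductase, was at least 7.91-fold lower and had -1.94 on the log2 scale in the Ang II arrays. Kctd16 and Ak5 were at least 6.48-fold and 5.93-fold lower, with WT control as the highest array for each.

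Several gene groups lay near the median of all genes. Subunits of oxidative phosphorylation had a median of 0.12 over 30 genes, genes of fatty acid oxidation 0.01 over 16 and ribosomal proteins 0.09 over 21, and none of these was at least 2-fold different in measured values.

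The Ang II arrays gave KO against WT a second time on arrays that this comparison does not use, with Ang II as an added difference and both pairs on the same slide. The design names 4 rats per genotype and not per group, so the pairs may share animals. The counts below include bounds, whose sign is set by which array detected the gene. Of the 304 lower genes with a value there, 286 (94.1%) were again below 0, 129 of them at least 2-fold, and their median was -0.87. Of the 202 higher genes, 153 (75.7%) were again above 0, 47 of them at least 2-fold, with a median of 0.52. Among all 9195 genes with values in both pairs 71.8% had the same sign, and in the Ang II pair 1.8% of genes were higher and 4.44% lower by 2-fold or more. Over the 8588 genes measured on all 4 arrays the ratios of the pairs correlated across genes with r = 0.60 and rho = 0.59, where genes are not independent replicates and no array is shared.

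Some calls in each direction rested on 1 control array that stood high. KO control lay at least 2-fold above each of the other 3 arrays for 43 of the 227 higher genes, and WT control did so for 33 of the 313 lower genes. In those genes 1 array stood apart from the rest. Genes where 1 control array stood low, such as Nr4a1 and Bnip3, were not counted, so the directions cannot be compared by these counts. Where a called gene had another detected probe, 40 of 53 agreed in sign and 17 of these were also past 2-fold.

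**Figure D4:**
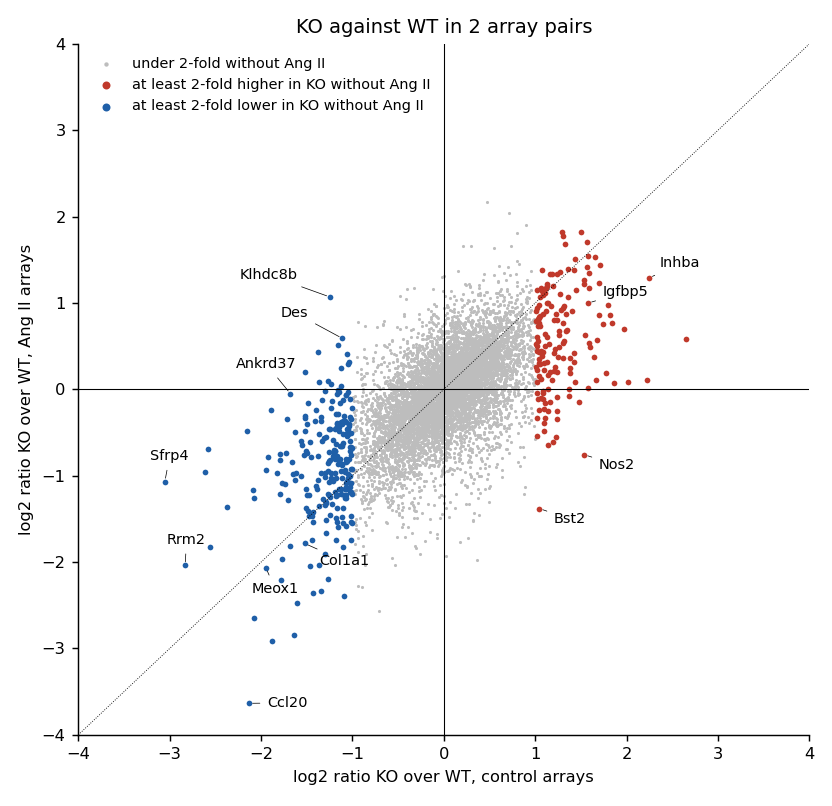
Log2 ratio of KO over WT for each gene measured on all 4 arrays, in the control arrays (x axis) against the Ang II arrays (y axis), with genes at least 2-fold higher or lower without Ang II in red and blue. Most blue points lie below 0 on the y axis and red points spread down to 0 and below, while Klhdc8b (-1.25 and 1.07) and Bst2 (1.05 and -1.38) lie past 2-fold in opposite directions.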

How the data were processed

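RNA from rat vessels was labelled with Cy3 from 100 ng of total RNA, per the labels' protocols, and read on 4 1-colour Agilent arrays of 1 slide, 1 per group. The intensity values are scanner output as deposited: the processed signal is background-subtracted and detrended within the array but not normalized between arrays, per the file headers, and flags for signal well above background and outlier spots are 0 or 1. The software was Agilent Feature Extraction, version 12.1.1.1 per the submitters' processing notes and 10.7.1.1 per the file headers. The value table deposited by the authors is in log2 and was used as an alternative only.

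Spots flagged as outliers (301 to 372 per array) were left out, spots of a probe were averaged, and log2 signal minus the array's 75th percentile (58.7 on WT control, 47.3 on KO control, 62.4 and 52.1 on the WT and KO Ang II arrays) was the level. A probe counted as well above background where more than 50 percent of its spots did; no probe was saturated. Of 45594 probes, 21107 were named through RefSeq accessions of GRCr8 (16580 genes), and a gene took its brightest detected probe. The median SD of log2 signal over replicate spots was 0.0693 to 0.0809; the number of arrays limits precision. Bounds set the dim side to the higher of its own level and the lowest level of a detected probe on that array.

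Members and lists were chosen with earlier results of these data known. Named genes were Prkcb and its isoforms, the 15 largest measured ratios and 8 largest bounds each way, list members past 2-fold, the 6 brightest of a list and genes whose probes disagree; some were left out for length, and a few are not reported here. The 2 arrays entered no model. Alternatives were other scalings, probe summaries, filters, folds and normexp background correction (limma 3.58.1, R 4.3.3), for which the median pixel intensity replaced the mean, the column planned. Other steps ran in Python 3.11.15 (pandas 2.3.3, numpy 2.4.6, scipy 1.17.1, matplotlib 3.10.9).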

Additional observations from a re-analysis of the deposited data

Results flagged for a closer look

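For 2 genes the difference between KO and WT was past 2-fold in opposite directions without and with Ang II. Klhdc8b had a log2 ratio of -1.25 without and 1.07 with Ang II, from levels of -0.78 on WT control, -2.02 on KO control, -2.30 on WT Ang II and -1.23 on KO Ang II, at dim signals. Bst2 had a log2 ratio of 1.05 without and -1.38 with Ang II, from levels of 3.15 on WT control, 4.20 on KO control, 4.82 on WT Ang II and 3.44 on KO Ang II. With 1 array per group, the difference between the conditions was not tested for either gene.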

How the results depend on the processing

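None of the 143 genes followed under the alternatives (the largest differences and bounds, list members past 2-fold and Prkcb) changed direction under any of 9 alternatives to scaling, background, probe choice or filter in which it had a value; 111 had one among genes measured on both arrays. Apart from Prkcb the followed genes were chosen for a size of at least 2-fold in these data. The largest shift of the median gene was -0.098, under normexp, so kept signs were likely in advance. Genes named at smaller ratios were not followed, and Prkd3, whose probes gave 0.03 and -0.91, has no settled direction. Of all 540 calls, 539 kept their sign when probes of a gene were averaged. Genes at least 2-fold higher in KO control and genes at least 2-fold lower in KO control numbered 25 and 89 with normexp background correction, against 227 and 313, so 21.9% in place of 42.0% of calls were higher; all 540 called genes kept their sign and 95 stayed past 2-fold. Normexp adds an offset of 50, which shrinks the ratios of dim probes. It also moved the list medians of the smooth muscle genes to 0.23 from 0.41, of the cell cycle to -0.15 from -0.36 and of macrophage markers to -0.48 from -0.77. Further medians with bounds included that normexp moved by over 1.5 times were those of immediate early factors (0.40 to 0.16), NF-kB (0.49 to 0.21), dual-specificity phosphatases (0.39 to 0.11), smooth muscle markers (0.66 to 0.24), blood endothelium (-0.65 to -0.34), imprinted genes (-0.28 to -0.17), Wnt genes (0.25 to 0.12) and interferon genes (0.18 to 0.07), among others. Of 51 list medians, 6 near 0 changed sign under normexp, among them those of ribosomal proteins and oxidative phosphorylation, which also did so under quantile normalization; those of the contractile, collagen, cell cycle, stress, hypoxia and macrophage lists kept theirs under every alternative. Without a filter on dim probes the counts were 894 and 942 over 16580 genes. At 1.5-fold they were 1048 and 1063, and at 3-fold 37 and 64. Other scalings gave 207 to 220 higher and 323 to 335 lower, the mean of a gene's probes 235 and 309, the values deposited by the authors 227 and 315, genes measured on both arrays alone 166 and 239, and, in an alternative chosen after seeing the data, counting a probe as detected at 50 percent or more of its spots 280 and 390. No paired analysis was possible because each group holds 1 array, so leaving out a replicate and a replicate block could not be fitted. A weak signal over background limits dim genes such as Cnn1, Lif and Igfbp5, where ratio errors were 0.30 to 0.37.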
